A study of Mus musculus with 10 samples.

Results

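The 9 genes Rbp2, Lrat, Bco1, Isx, Adh1, Rdh7, Dhrs9, Aldh1a1 and Aldh1a2 code for a retinoid carrier, a transcription factor and enzymes that esterify, cleave or oxidise retinoids and alcohols. They were picked by name from the 23079 genes of the expression table, with their levels across tissues and surgeries already known. Their levels and differences are therefore given as descriptions, with no test.

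Retinoids enter the gut as retinyl esters and as provitamin A carotenoids. Inside the enterocyte, the oxygenase encoded by Bco1 cleaves β-carotene to retinal, the binding protein encoded by Rbp2 holds retinol and retinal, and the acyltransferase encoded by Lrat esterifies retinol for export in chylomicrons. Alcohol and retinol dehydrogenases interconvert retinol and retinal, the Aldh1a enzymes oxidise retinal to retinoic acid, and ISX, a homeobox factor induced by retinoic acid, represses Bco1 and the carotenoid transporter gene Scarb1.

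RNA was sequenced from stomach, duodenum, jejunum, ileum and colon of mice that had undergone vertical sleeve gastrectomy (VSG) or a sham operation, with 1 library for each of the 10 combinations. All were male C57BL/6J mice, 17 weeks old, kept on a high-fat diet for 13 weeks and fasted overnight before the operation. VSG took away the lateral 80% of the stomach and left a pouch of about 20%, whereas in sham mice the abdomen was opened and the stomach was pressed gently. Both groups received a liquid diet for the first 3 days after surgery, with high-fat diet brought back from day 3. The labels do not say how many animals a library holds, whether RNA was pooled or when after surgery tissue was taken.

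Levels are given as RPKM, reads scaled for transcript length and a depth for each library, and the libraries held 36036619 to 79260603 reads on genes. These reads were 0.857 (Sham Duodenum) to 1.16 (VSG duodenum) times the depth that the values imply. With 1 library per combination a difference within a tissue has no replicate check. Its 95% interval, from an exact conditional binomial calculation on the recovered reads, covers counting error only. In the table as deposited, the 8 intestinal columns stood 1 row too low over 18187 rows, which include all 9 genes, and the columns were moved back. After the move, a length could be fitted to each of the 9 genes that gave whole reads, to within 0.001 reads, in every library. With the rows as deposited this was so for 0 of 9.

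Marker genes set 3 libraries apart in ways that touch these genes. The library labelled Sham Duodenum held little intestinal RNA. There 10 enterocyte markers summed to 15.8 RPKM against 33915 RPKM in VSG duodenum, and 7 markers of neurons and glia summed to 1523 RPKM against 9.84 to 39.5 RPKM in the other 9 libraries. The VSG stomach library held much more RNA of liver and pancreas genes than the sham one. Its 10 hepatocyte markers summed to 15761 RPKM against 72.6 RPKM in sham stomach, and its 6 pancreatic acinar markers to 1490.5 against 119.8 RPKM. Of the acinar sum in sham stomach 115.1 RPKM was Amy2a5, and the median acinar marker was at 0.77 RPKM there against 188.9 RPKM in VSG stomach. The 8 markers of gastric glands and surface mucosa summed to 28411 RPKM in VSG against 146006 RPKM in sham stomach. In the same pair 5 of 6 markers of fibroblasts and connective tissue were at least 2-fold higher (summing to 270 and 1199 RPKM), as were 5 of 6 markers of macrophages and dendritic cells (160 and 854 RPKM). VSG duodenum held gastric and pancreatic RNA beside that of enterocytes, with gastric markers summing to 2061 RPKM against 17.6 to 61.5 RPKM in the other 7 intestinal libraries, and acinar markers to 2556 RPKM. Acinar markers were also higher in VSG than in sham jejunum (228 and 2.05 RPKM) and colon (412 and 2.32 RPKM). In ileum they summed to 3.28 RPKM in the VSG and 6.01 RPKM in the sham library.

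Promoter windows of 250 bases before to 50 bases after the annotated start site were available for all 9 genes, in 11 windows from RefSeq on build GRCm38.p6. The nuclear receptor motif AGGTCA, searched on both strands, was present in the windows of Rbp2, Bco1, Dhrs9 and Rdh7, and in 16.255% of all 32851 mouse windows. A direct repeat of that motif with a 1-base gap, AGGTCANAGGTCA, which contains it at both ends, was found on either strand in 0.040% of all windows and among the 9 genes in that of Bco1. The windows of Rbp2 (chr9:98490287-98490586, plus strand) and Bco1 (chr8:117095615-117095914, plus strand) are shown because retinoid receptors are known to bind such elements and both genes act on retinoids in the enterocyte. Capitals mark the motif, which reads TGACCT on the strand shown.
Rbp2: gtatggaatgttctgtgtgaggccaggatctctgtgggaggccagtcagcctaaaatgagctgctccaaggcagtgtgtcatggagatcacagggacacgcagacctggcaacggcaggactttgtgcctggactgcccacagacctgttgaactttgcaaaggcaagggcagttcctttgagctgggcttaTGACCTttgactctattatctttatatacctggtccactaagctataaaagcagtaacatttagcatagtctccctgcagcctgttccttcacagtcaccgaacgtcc
Bco1: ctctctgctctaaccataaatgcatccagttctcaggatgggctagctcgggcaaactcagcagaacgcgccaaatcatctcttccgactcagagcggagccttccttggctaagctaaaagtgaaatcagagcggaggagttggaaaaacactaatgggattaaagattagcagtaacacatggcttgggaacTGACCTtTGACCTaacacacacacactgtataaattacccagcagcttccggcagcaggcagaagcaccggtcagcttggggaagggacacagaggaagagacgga
In Rbp2 the motif began 58 bases before the start site, and in Bco1 the copies began 56 and 49 bases before it. A TATA box, TATAAA on either strand, lay in the windows of Rbp2, Bco1 and Dhrs9 and in 13.616% of all windows. The core letters of CDX sites, CATAAA on either strand, were in those of Bco1 and Rdh7 and in 11.85% of all windows, and the GATA core AGATAA in those of Adh1, Aldh1a1 and Rbp2 and in 11.178%. A match describes the letters and not a bound site.

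Rbp2, the cellular retinol-binding protein of the enterocyte (Entrez 19660; chromosome 9, 98490537 to 98509771, GRCm38), was one of the most abundant transcripts of the upper small intestine. Its level was 8503 RPKM in sham jejunum and 5669 RPKM in VSG jejunum, where it ranked 4 and 5 among all genes, and 4798 RPKM in VSG duodenum, where it ranked 7. It stood at 1572 and 1609 RPKM in sham and VSG ileum, at 84.3 and 64.9 RPKM in stomach and at 19.8 and 34.5 RPKM in colon. The order of tissues was jejunum, ileum, stomach and colon, and in none of these steps did the sham and VSG values of neighbouring tissues overlap. The library labelled Sham Duodenum gave 2.32 RPKM. In these bulk samples fewer cells of a type and less RNA per cell cannot be told apart, for this gene and the others.

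Lrat, which stores retinol as retinyl esters (Entrez 79235; chromosome 3, 82892582 to 82903974), was present at a few RPKM along the intestine. It was at 5.56 and 5.09 RPKM in sham and VSG jejunum, 4.51 and 4.12 RPKM in ileum and 3.05 and 2.86 RPKM in colon, and was highest in VSG duodenum at 7.33 RPKM. Sham stomach held 0.024 RPKM, from 10 reads, and VSG stomach 1.28 RPKM, from 318 reads. The order was jejunum, ileum, colon and stomach, without overlap between neighbouring tissues. The library labelled Sham Duodenum gave 1.01 RPKM.

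Bco1, the β-carotene oxygenase (Entrez 63857; chromosome 8, 117095851 to 117133720), was low throughout. The highest levels were in ileum, with 2.56 RPKM for sham and 2.54 RPKM for VSG mice. Jejunum had 1.72 and 1.21 RPKM, VSG duodenum 1.62 RPKM, and colon 0.93 and 0.99 RPKM. Stomach held 0.39 RPKM in the sham and 1.25 RPKM in the VSG library, so its values overlapped those of jejunum and colon. The library labelled Sham Duodenum gave 0.27 RPKM.

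Isx, the intestinal homeobox factor (Entrez 71597; chromosome 8, 74873174 to 74893506), was on at like levels in all intestinal tissues and nearly off in stomach. It was at 39.0 and 42.2 RPKM in sham and VSG jejunum, 50.7 and 55.1 RPKM in ileum, 38.2 and 47.8 RPKM in colon and 40.0 RPKM in VSG duodenum. Jejunum and colon overlapped, and ileum lay above both. Stomach held 0.16 and 0.23 RPKM, from 12 and 10 reads, and the library labelled Sham Duodenum 0.022 RPKM, from 1 read. Scarb1, a known target of ISX that takes up carotenoids, was at 23.9 and 13.0 RPKM in sham and VSG jejunum, 4.34 and 4.31 RPKM in ileum, 12.3 and 13.9 RPKM in colon, 12.8 and 37.6 RPKM in stomach and 62.4 RPKM in VSG duodenum. Over stomach, jejunum, colon and ileum, Scarb1 differed from the mean of the other 3 tissues by log2 1.04, 0.64, 0.09 and -1.775. The same values for Isx were -5.27, 1.56, 1.66 and 2.05, the reverse order in these fitted values. Within the sham libraries alone, and within the VSG libraries alone, the orders were not the reverse of each other. In sham mice Scarb1 was highest in jejunum, whereas Isx was lowest in stomach. The fitted stomach value of Scarb1 includes the VSG stomach library, which held RNA of liver genes. Jejunum and colon overlapped for both genes, and stomach overlapped them for Scarb1. The highest Scarb1 level was in VSG duodenum, where Isx was like that in jejunum. A link between these genes was not tested.

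**Figure D1:**
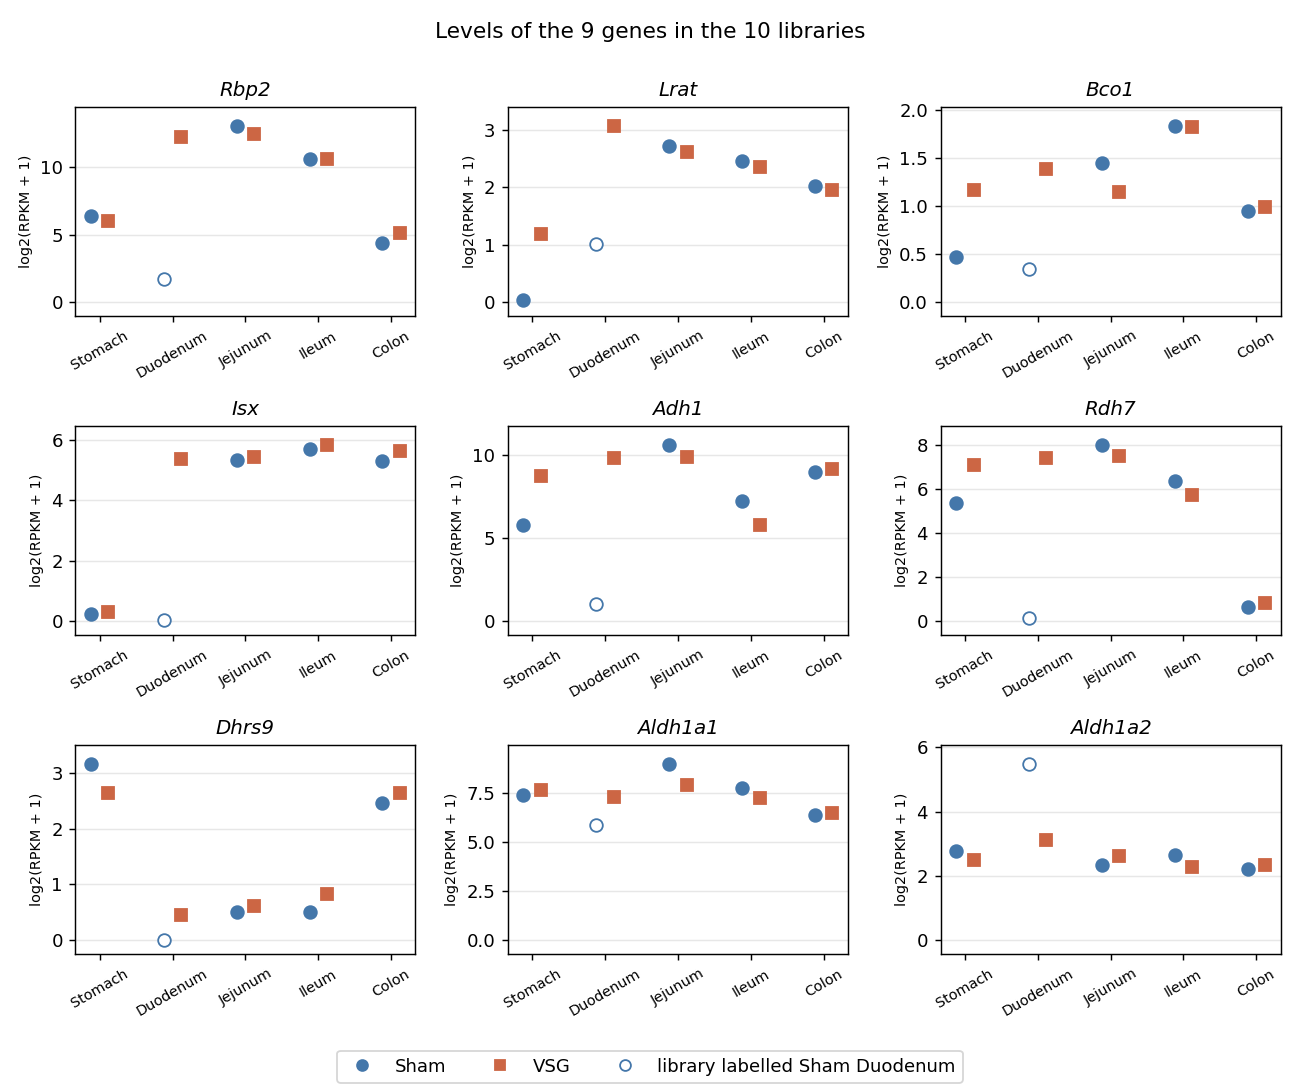
Each panel shows 1 gene, with tissue on the x axis and log2(RPKM + 1) on the y axis, and each point is 1 library (circles for sham, squares for VSG, an open circle for the library labelled Sham Duodenum). Rbp2 peaks in jejunum at 8503 RPKM, Isx is near 0 in stomach alone among the tissues with an undisputed pair, and Dhrs9 is highest in stomach and colon.

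Adh1, the class I alcohol dehydrogenase, which acts on ethanol and on retinol (Entrez 11522; chromosome 3, 138277585 to 138290698), was high in jejunum and colon and lower in ileum between them. Sham and VSG jejunum had 1557 and 974 RPKM, colon 508 and 582 RPKM, and ileum 150 and 55.3 RPKM. VSG duodenum had 908 RPKM. Stomach had the largest ratio between surgeries among the 4 tissues other than duodenum, with 53.7 RPKM for sham and 432 RPKM for VSG mice, and the library labelled Sham Duodenum held 1.07 RPKM. The stomach values overlapped those of ileum, while jejunum and colon stood apart from the other tissues and from each other.

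Adh1 lies in a cluster of alcohol dehydrogenase genes on chromosome 3, 22.6 kb from Adh6a and 45.5 kb from Adh7, the class IV enzyme of upper gut epithelium. Of the summed RPKM of Adh1, Adh4, Adh5, Adh6a and Adh7, Adh1 made up 90.2% and 90.7% in sham and VSG colon. In jejunum its share was 61.1% and 53.6%, and in ileum 53.4% and 37.3%. Most of the rest there was Adh6a, at 874 and 761 RPKM in jejunum and 96.4 and 56.5 RPKM in ileum. In stomach the share of Adh1 was 31.9% in the sham library, where Adh7 held 45.9%, and 78.5% in the VSG library, where Adh7 held 4.28%. The gene with the largest share of this RNA sum was thus Adh7 in sham stomach and Adh6a in VSG duodenum (52.5% against 42.6% for Adh1). By a small margin it was also Adh6a in VSG ileum (38.1% against 37.3%). In the other libraries apart from that labelled Sham Duodenum it was Adh1. Adh6b, which lies 50.7 kb from Adh1, was not found in the table and is missing from the sum.

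Rdh7, a short-chain dehydrogenase of retinol and steroids (Entrez 54150; chromosome 10, 127884027 to 127889247), was found in stomach and small intestine and hardly in colon. Its level was 249 and 176 RPKM in sham and VSG jejunum, 168 RPKM in VSG duodenum and 81.5 and 52.2 RPKM in ileum. Colon had 0.54 and 0.79 RPKM, from 37 and 47 reads, so that Rdh7 and Adh1 parted there. Stomach had 39.9 RPKM in the sham and 132 RPKM in the VSG library, a range that spans the ileum values. Only 8 reads, 0.10 RPKM, were counted in the library labelled Sham Duodenum.

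Rdh7 is part of a cluster of related genes on chromosome 10, 6.7 kb from Rdh16f2 and 101.7 kb from Hsd17b6. In jejunum it gave 66% and 67.2% of the summed RPKM of 7 cluster genes in sham and VSG mice, but in colon 2.37% and 3.04%. There Rdh16, at 10.1 and 10.5 RPKM, and Rdh9, at 8.52 and 10.4 RPKM, were the higher members. Of the 50-base stretches of the Rdh7 transcript, 13.2% also occur in the transcripts of Rdh18-ps or Rdh1, so its level is uncertain to the extent that reads were divided between these genes. Rdh1 was under 2 RPKM in every library.

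Dhrs9, a retinol and hydroxysteroid dehydrogenase (Entrez 241452; chromosome 2, 69380462 to 69403086), had the opposite layout to Rbp2. It was highest in stomach, at 7.88 and 5.19 RPKM in sham and VSG mice, and in colon, at 4.49 and 5.20 RPKM, and these ranges overlapped. Jejunum held 0.42 and 0.53 RPKM, ileum 0.42 and 0.78 RPKM and VSG duodenum 0.37 RPKM. No read was counted in the library labelled Sham Duodenum, where 3 reads would have given 0.0221 RPKM. Over the 9 other libraries Pearson's r of its log2 level with that of Rbp2 was -0.93, which is a description over libraries that share tissues.

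**Figure D2:**
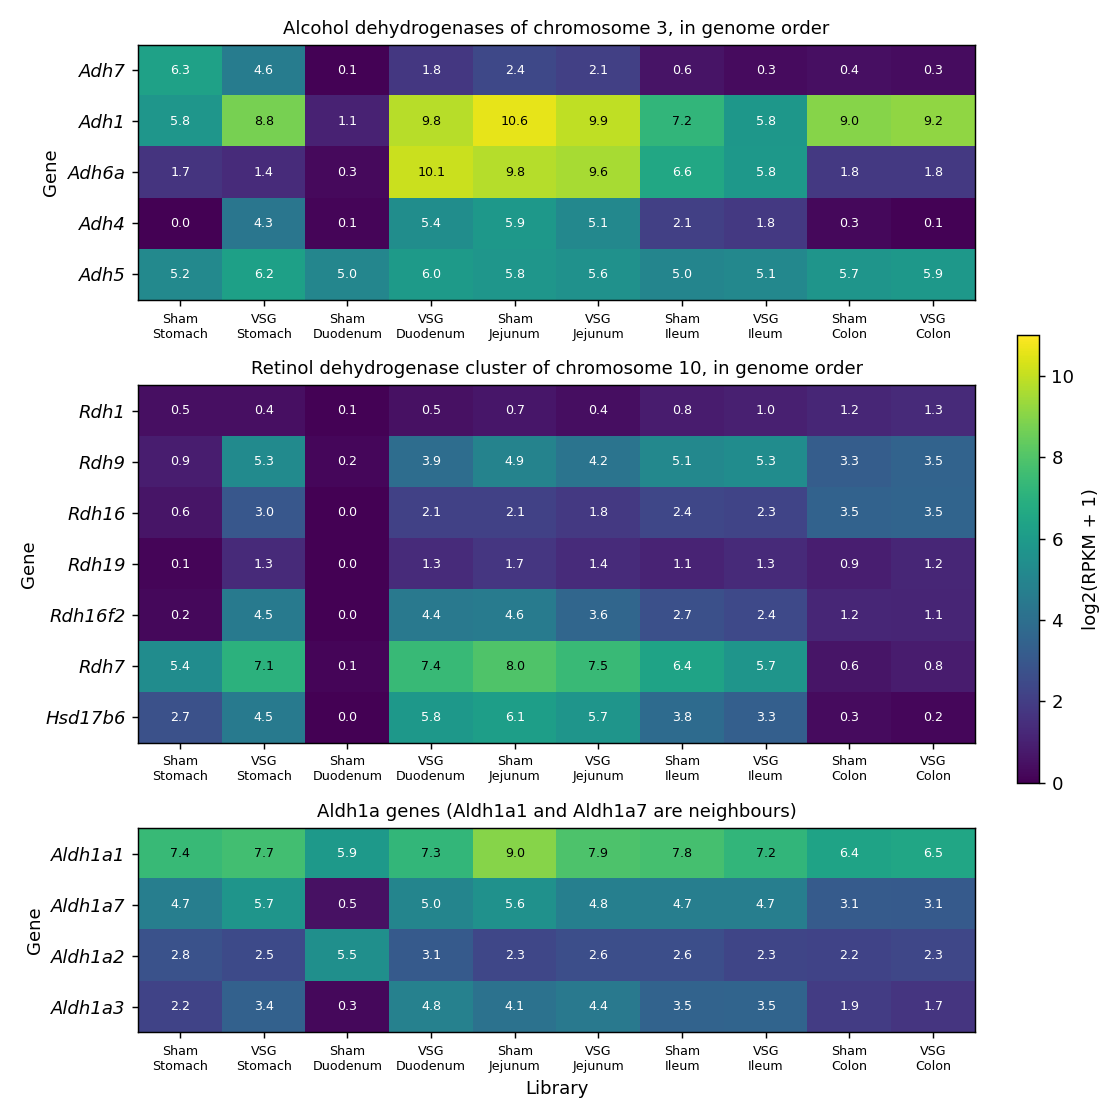
Colour and number give log2(RPKM + 1) for each gene (rows) in each of the 10 libraries (columns), for the alcohol dehydrogenases of chromosome 3, the retinol dehydrogenase cluster of chromosome 10 and the Aldh1a genes. Adh1 stays high in colon while Adh6a and Rdh7 do not, and Aldh1a1 is the highest Aldh1a gene in all 10 libraries.

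Aldh1a1, a retinal dehydrogenase that makes retinoic acid (Entrez 11668; chromosome 19, 20492583 to 20643463), was expressed in every library. It was at 505 and 245 RPKM in sham and VSG jejunum, 216 and 151 RPKM in ileum, 168 and 205 RPKM in stomach, 156 RPKM in VSG duodenum and 83.3 and 90.0 RPKM in colon. Jejunum was highest and colon lowest, and ileum and stomach overlapped. The library labelled Sham Duodenum had 59.0 RPKM. Of its 50-base stretches, 7.53% are shared with the neighbouring Aldh1a7, which was at 46.4 and 26.0 RPKM in jejunum and 25.1 and 51.8 RPKM in stomach. Aldh1a1 made up 70.2% (VSG duodenum) to 88.3% (sham jejunum) of the summed RPKM of Aldh1a1, Aldh1a2, Aldh1a3 and Aldh1a7. In the library labelled Sham Duodenum, left out of that range, its share was 57.2%.

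Aldh1a2, the retinal dehydrogenase known from embryonic and mesenchymal tissue (Entrez 19378; chromosome 9, 71215789 to 71296243), differed little among the gut tissues. Its sham and VSG levels were 5.84 and 4.62 RPKM in stomach, 4.10 and 5.20 RPKM in jejunum, 5.22 and 3.85 RPKM in ileum and 3.61 and 4.09 RPKM in colon. All neighbouring tissues overlapped. VSG duodenum had 7.77 RPKM, while the library labelled Sham Duodenum had 43.5 RPKM, the highest value of this gene and the reverse of the other 8 genes, which were lower there than in VSG duodenum.

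The effect of surgery was then compared within each tissue, leaving out genes whose pair averaged under 1 RPKM, as log2 of the ratio of VSG to sham after adding 1 RPKM. A difference of 2-fold or more on that scale was counted. In stomach 6 of the 9 genes passed the level filter and 2 of them, Adh1 and Rdh7, were at least 2-fold higher after VSG, against 12.9% of all 13358 genes higher and 3.95% lower. Adh1 went from 53.7 to 432 RPKM, a ratio of 8.04 (7.82 to 8.28), and Rdh7 from 39.9 to 132 RPKM, a ratio of 3.30 (3.19 to 3.42). The other 4 were within 2-fold, with Rbp2 at a log2 difference of -0.37, Dhrs9 at -0.52, Aldh1a2 at -0.28 and Aldh1a1 at 0.29. Of the 3 genes under the filter, Lrat gave 10 and 318 reads, a ratio of 53.9 (28.9 to 113), Bco1 77 and 146 reads, a ratio of 3.21 (2.42 to 4.29), and Isx 12 and 10 reads, a ratio of 1.41 (0.55 to 3.56).

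The higher level of Adh1 and Rdh7 stood in the library in which all 10 hepatocyte markers were at least 2-fold higher, with a median log2 difference of 9.12. Both genes are known to be expressed in liver. Markers of fibroblasts (median 2.44) and of macrophages (median 2.47) were higher there too. Among 4 genes of hepatic stellate cells other than Lrat, Reln went from 0.26 to 1.04 RPKM, Hgf from 0.44 to 0.66, Colec10 from 3.41 to 4.08 and Ecm1 from 61.8 to 161 RPKM, summing to 65.9 and 166.7 RPKM. The part of these other cell types in the levels of Adh1, Rdh7 and Lrat was not tested.

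In jejunum 8 of the 9 genes passed the filter and 1, Aldh1a1, was at least 2-fold lower after VSG, against 0.762% of all 11674 genes higher and 0.300% lower. Aldh1a1 was 2.06-fold lower (2.02 to 2.10), and its log2 difference of -1.04 became -0.93 when libraries were rescaled to the same total of reads. Adh1 was 1.60-fold lower (1.58 to 1.62), Rbp2 1.50-fold lower (1.49 to 1.51), Rdh7 1.42-fold lower (1.38 to 1.45) and Bco1 1.43-fold lower (1.12 to 1.82). Lrat lay near 0 at a log2 difference of -0.11, and Isx and Aldh1a2 lay above 0 at 0.11 and 0.28, while Dhrs9 was below the filter. The median of the 8 was -0.40, beside -0.02 over all genes kept. Of 10 enterocyte markers 9 were also below 0 in VSG jejunum, with a median of -0.25, none at least 2-fold, and a summed level of 38859 against 52750 RPKM. Markers of fibroblasts were above 0 in 6 of 6 (median 0.58) and those of macrophages in 5 of 5 kept (median 0.67). The part of these cell types in the lower levels was not tested.

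In ileum 8 genes passed and 1, Adh1, was at least 2-fold lower after VSG, against 0.148% of all 12195 genes higher and 0.123% lower. Adh1 was 2.71-fold lower (2.60 to 2.82), from 9997 reads in the sham and 2879 in the VSG library. Rdh7 was 1.56-fold lower (1.50 to 1.63), Aldh1a1 1.43-fold lower (1.40 to 1.47) and Aldh1a2 1.36-fold lower (1.18 to 1.55). Rbp2, Bco1, Lrat and Isx had log2 differences between -0.11 and 0.12, and the 8 genes had a median of -0.23 beside 0.01 over all genes. Enterocyte markers split evenly, 5 above and 5 below 0, with a median of -0.07 and summed levels of 29731 and 28825 RPKM. All 6 smooth muscle markers lay below 0 (median -0.39). Of 4 markers of ileum identity 3 lay above and 1 below 0 (median 0.04), and 1 was at least 2-fold higher. The part of cell types and of ileum identity in the lower levels was not tested. Adh6a, the neighbour of Adh1, was 1.71-fold lower (1.63 to 1.78) in the same pair.

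In colon 7 genes passed and none was 2-fold different, against 0.432% of all 12963 genes higher and 0.0463% lower. Rbp2 was furthest from 0, at 19.8 and 34.5 RPKM, a ratio of 1.74 (1.57 to 1.94), from 571 and 868 reads. In the same pair the summed level of 10 enterocyte markers was 667 and 893 RPKM, with 8 of the 9 kept above 0, and the part of this in the level of Rbp2 was not tested. Isx had a ratio of 1.25 (1.17 to 1.34), Adh1 of 1.15 (1.13 to 1.17), Dhrs9 of 1.16 (1.03 to 1.31) and Aldh1a1 of 1.08 (1.05 to 1.12). The intervals of Lrat and Aldh1a2 included 1, as did those of Bco1 and Rdh7, which did not pass the filter.

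In duodenum 7 genes passed, of which 6 were at least 2-fold higher in the VSG library and 1, Aldh1a2, was lower, against 27.5% of all 14452 genes higher and 27.9% lower. Since the library labelled Sham Duodenum held little enterocyte RNA, these values compare gut with a library rich in neural transcripts, and the effect of surgery on duodenum cannot be told apart from that difference. Without that library duodenum has a single value per gene and no difference. The levels in VSG duodenum were nearest to those in jejunum for Rbp2, Adh1 and Rdh7.

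**Figure D3:**
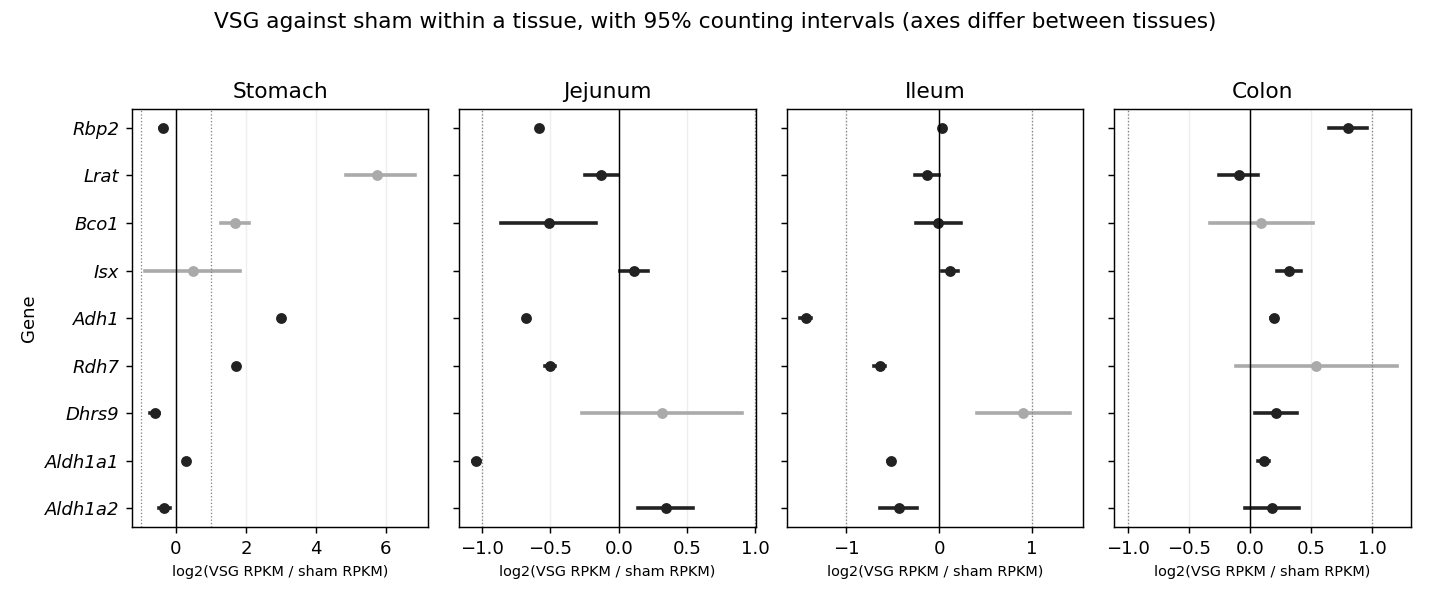
Points show log2 of the ratio of VSG to sham RPKM for each of the 9 genes (y axis) in 4 tissues (panels, with x axes of different range), bars the 95% counting interval, dotted lines 2-fold, and grey points genes with a pair mean under 1 RPKM. Adh1 lies at a ratio of 8.04 in stomach and is 2.71-fold lower in ileum, and bars narrower than a marker are hidden by it.

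The other genes of retinoid and alcohol metabolism were taken from a list of 53, of which 51 were found in the table. It was drawn up with earlier results of these data known, so its counts are descriptions. In stomach 43 passed the filter, with 18 at least 2-fold higher after VSG, 3 lower and a median of 0.58, beside 12.9% and 3.95% of all genes and a median of 0.00. The 8 largest were Rbp4, the plasma retinol carrier (6.52 and 443 RPKM), Pnlip, pancreatic lipase (1.06 and 84.4), Aldh8a1 (0.05 and 29.3), Rdh9 (0.87 and 37.1), Rdh16f2 (0.16 and 22.3), Adh4 (0 and 19.0), Ttr, the partner of the plasma retinol carrier (60.0 and 751), and Rdh16 (0.52 and 6.92). Adh4 had 0 reads in sham stomach, where 3 reads would have given 0.0292 RPKM. Ttr is also 1 of the 10 hepatocyte markers, and the part of liver and pancreas RNA in these genes was not tested. The 3 lower genes were Adh7 (77.2 and 23.6 RPKM), the aldehyde dehydrogenase gene Aldh3a1 (154 and 48.2) and the retinol-binding protein gene Rbp7 (7.00 and 2.00), named after their values were seen. They stood beside 6 of 8 gastric mucosa markers that were at least 2-fold lower. All 6 smooth muscle markers (median -0.51) and the 4 neuron and glia markers kept (median -0.88) also lay below 0. The 7 squamous forestomach markers summed to 2340 and 2260 RPKM, with 3 above and 4 below 0 (median -0.09). The part of these cell types in the 3 genes was not tested.

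In jejunum 1 of the 38 listed genes that passed was at least 2-fold higher and none lower, beside 0.762% and 0.300% of all genes. Below 0 lay 31 of the 38, with a median of -0.20, and 53% of all genes. The higher gene was Pnlip, at 0.10 and 15.0 RPKM, beside all 6 pancreatic acinar markers, which summed to 2.05 and 228 RPKM. Among those below 0, and named after their values were seen, were the transporter gene Scarb1, 1.83-fold lower (1.72 to 1.95), Retsat, retinol saturase, 1.69-fold lower (1.66 to 1.73), and Rdh16f2, the neighbour of Rdh7, 2.00-fold lower (1.80 to 2.22) in RPKM but at -0.94 on the log2 scale used. In ileum none of 37 passed 2-fold in either direction, beside 0.148% and 0.123% of all genes, and the median was -0.01. In colon 1 of 37 did, beside 0.432% of all genes higher, again Pnlip, at 0.10 and 31.8 RPKM, beside acinar markers that summed to 2.32 and 412 RPKM, and the median was 0.06.

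**Figure D4:**
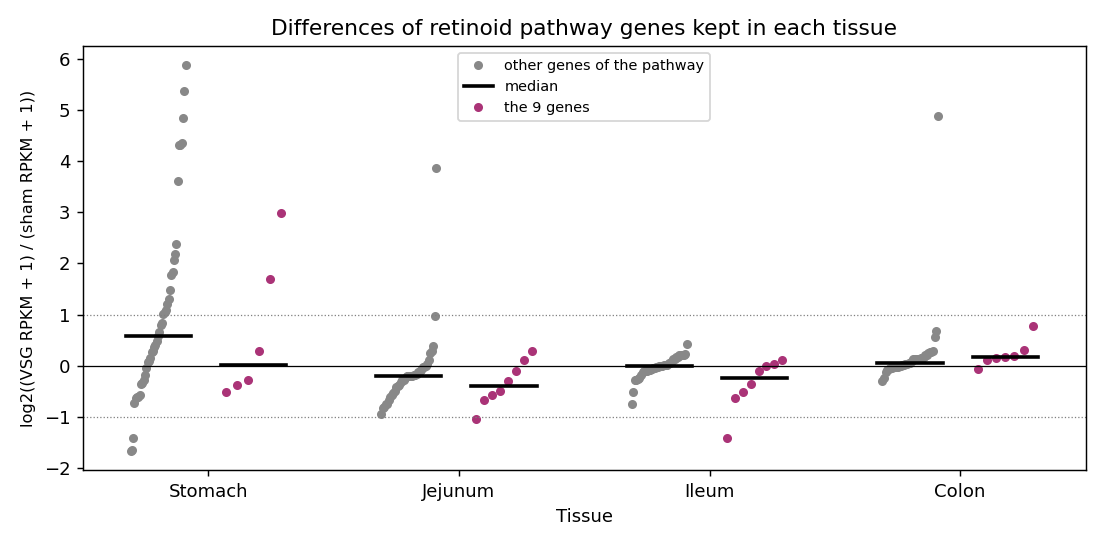
Each point is a gene that passed the level filter in stomach, jejunum, ileum or colon (x axis), with log2 of the VSG to sham ratio after adding 1 RPKM on the y axis, grey for other genes of the pathway, purple for those of the 9, bars for medians and dotted lines for 2-fold. The medians of the other genes are 0.58, -0.20, -0.01 and 0.06, and the isolated grey points of jejunum and colon are Pnlip.

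Over stomach, jejunum, ileum and colon together, limma on log2(RPKM + 1) was fitted with tissue as a block. It called no gene for surgery at an adjusted p of 0.05. This held among all 13350 genes tested (0% higher and 0% lower) and among the 43 listed genes tested. Of all 13350 genes 349 had an unadjusted limma p under 0.05, a smaller share than the 0.05 expected if no gene differed. Without the stomach pair the fit called 2 of all genes higher and none of the list. Such p-values reflect only how much these libraries vary, and the labels do not tie them to separate animals.

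The same libraries gave the regional layout of the listed genes, each tissue being compared with the mean of the other 3 and a gene called at 2-fold or more with an adjusted p under 0.05. The list was chosen with earlier results of these data known. Its counts and adjusted p-values are therefore descriptions, and it was not tested as a set. In stomach 9 of 43 were higher and 9 lower, against 9.01% and 9.76% of all genes. Among those higher were Fabp5 and Crabp2, which carry retinoic acid (log2 difference of 6.56, SE 0.11, limma adjusted p = 1.5e-05 for Fabp5), Aldh3a1, Ttr, Adh7, Rdh12, Lpl and Rarg. Adh7 differed by 4.43 (SE 0.34, limma adjusted p = 0.00079). Without the sham stomach library more listed genes were higher, and so were more of all genes.

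In jejunum 12 listed genes were higher and 7 lower, against 5.81% and 9.38% of all genes. The higher ones included Adh6a (log2 difference of 6.49, SE 0.16, limma adjusted p = 0.00036), Dgat1, which can esterify retinol (2.96, SE 0.17, limma adjusted p = 0.00080), Bco2, the mitochondrial carotenoid oxygenase (2.54, SE 0.13, limma adjusted p = 0.00072), Retsat (2.25, SE 0.24, limma adjusted p = 0.0031) and Hsd17b6 of the Rdh7 cluster (3.46, SE 0.49, limma adjusted p = 0.0068). Crabp2 and Fabp5 were among the lower ones. Leaving out either jejunum library lowered both counts, and leaving out either stomach library raised both. The calls among all genes moved in the same directions.

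In ileum 5 listed genes were higher and 4 lower, against 3.79% and 3.32% of all genes. Plb1, a brush border phospholipase with retinyl ester hydrolase activity, was at 130 and 114 RPKM in sham and VSG ileum and at most at 0.57 RPKM in the other 8 libraries, a log2 difference of 6.72 (SE 0.13, limma adjusted p = 0.00016). Adh6a, Dgat1, Aldh1b1 and Aldh9a1 were the others, and Adh7, Aldh3a1, Crabp2 and Fabp5 the lower ones. Fewer were higher when any jejunum, ileum or colon library was left out, and fewest without either ileum library. More were higher without either stomach library. The lower count rose without either stomach library and fell without any jejunum, ileum or colon library. The calls among all genes moved in the same directions.

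In colon 1 listed gene was higher and 15 lower, against 8.21% and 4.38% of all genes. The higher one was Aldh2, the mitochondrial acetaldehyde dehydrogenase, at 218 and 223 RPKM in sham and VSG colon (log2 difference of 1.13, SE 0.32, limma adjusted p = 0.042). Hsd17b6 (-4.13, SE 0.49, limma adjusted p = 0.0047), Adh6a, Dgat1, Plb1 and Fabp5 were among the lower ones. Leaving out the sham or the VSG colon library reduced the lower count, among the listed genes and among all genes. The call of Aldh2 rests on few libraries, since it was lost when any one of the intestinal libraries was left out.

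Genes with the most similar layout were ranked by Pearson's r of log2(RPKM + 1) over the 9 libraries other than that labelled Sham Duodenum, among 13316 genes. Since paired libraries share a tissue, these r are descriptions. Rbp2 was closest to Acsl5, an acyl-CoA synthetase of enterocytes (r = 0.99), the incretin gene Gip and Zdhhc9. Isx was closest to Ppp1r14d, the goblet cell gene Tff3 and Cdx2, the intestinal homeobox gene (r = 1.00 for each), all far lower in stomach than in the intestine. Rdh7 was closest to Apol9a (r = 0.98), Cyb5a and its own cluster neighbour Hsd17b6 (r = 0.97).

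Adh1 was closest to Bdh1, a ketone body dehydrogenase (r = 0.94), Ces1e and Gstm4. Lrat was closest to Tent2 (r = 0.99), Gadd45a and Ccnb2, Bco1 to Efhd2 (r = 0.97), Ptpre and Ubxn8, and Dhrs9 to Pla2g4f (r = 0.99), with Cbr2 also among its nearest. Aldh1a1 was closest to the tubulin genes Tubb2a and Tubb2b (r = 0.95 and 0.94) and Paqr7, and Aldh1a2 to Odf2l (r = 0.95), Trmt61a and Col13a1. Among the 9 genes themselves the highest r were 0.87 for Lrat with Isx, 0.84 for Aldh1a1 with Rdh7 and 0.79 for Rbp2 with Rdh7, and Adh1 reached 0.56 with Lrat. With Spearman's rho in place of r, 5 of the 27 nearest genes were kept.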

How the data were processed

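RNA was extracted with TRIzol and libraries were made with a TruSeq kit, per the labels' protocols. GSNAP, Cufflinks and build mm10 are named in the submitters' processing notes, while annotation and filters were not given in the sources used here. RPKM values computed by the authors were deposited for 10 libraries with Entrez identifiers, of which 23008 of 23079 matched a gene symbol. The 8 intestinal columns were moved back by 1 row between table rows 27 and 18213. For each gene a length was fitted at which RPKM multiplied by length and depth gave whole reads, within 0.001 reads. Such a length was found for 18565 of 18580 genes above 0 in at least 4 libraries, and the other 15 were left out. Recovered reads were 0.857 to 1.16 times the depth that the values imply.

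The 9 genes and the pathway and marker lists were chosen with earlier results of these data known. Differences within a tissue used a pseudocount of 1 RPKM and a minimum pair mean of 1 RPKM. Fits used limma 3.58.1 in R 4.3.3 with a mean-variance trend on 8 libraries, with tissue as a block for surgery and surgery as an additive term for tissue, Benjamini-Hochberg adjusted over all genes and tested on simulated data. The duodenum pair was left out of the fits. The labels give no batch. Genes named beside the 9 are the 3 most similar genes to each, up to 8 listed pathway genes past 2-fold per tissue, and pathway genes called in a fit, a few of which are not reported here. Alternatives were a pseudocount of 0.1 RPKM, no level filter, rescaled libraries, rows as deposited, the duodenum pair added and each library left out. No source states that counting used strand, so reads of Adh1 and the antisense gene Gm16559, which share 88 exon bases, cannot be told apart there.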

Additional observations from a re-analysis of the deposited data

Results flagged for a closer look

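Adh1 moved in opposite directions in the stomach and ileum pairs. It was higher after VSG in stomach, at 53.7 and 432 RPKM, and lower in ileum, at 150 and 55.3 RPKM, and the log2 differences of 2.98 and -1.42 lay 4.41 apart. There was 1 library per surgery in each tissue, so the difference between the tissues was not tested. The VSG stomach library also held 15761 RPKM of hepatocyte markers against 72.6 RPKM in sham stomach.

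The library labelled Sham Duodenum, which enters no fit, held 43.5 RPKM of Aldh1a2, a gene at 3.61 to 7.77 RPKM in the other 9 libraries. It was the one gene of the 9 with its highest level there.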

How the results depend on the processing

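Counts of the 9 genes past 2-fold kept to within 1.5 times under a pseudocount of 0.1 RPKM and with no level filter. Without the filter Lrat in stomach (log2 difference of 1.16) and Bco1 in duodenum (1.04) were also past 2-fold. Rescaling all libraries to the same total of reads gave 0 genes lower in jejunum in place of 1, and moved the median of all genes from 0.05 to -0.35 in duodenum and from -0.02 to 0.08 in jejunum. With rows as deposited, which reads values of neighbouring genes, duodenum had 3 higher and 2 lower and ileum 0 lower, and the log2 difference reversed for Adh1 (-1.68), Aldh1a2 (1.39), Rbp2 (-1.27) and Rdh7 (-0.58) in duodenum and for Aldh1a1 (0.069) in jejunum. Listed pathway genes called in the tissue fits, as deposited, were 24 higher in stomach, 4 higher and 16 lower in jejunum, 2 higher and 17 lower in ileum and 5 higher in colon, while calls among all genes moved as well, such as from 1203 to 4005 higher in stomach and from 1252 to 2685 lower in jejunum. With the duodenum pair added the listed genes called were 1 lower in stomach and 1 lower in colon. In jejunum they were 0 higher and 2 lower, and in ileum 1 higher and 0 lower. Calls among all genes fell too, such as from 1303 to 284 lower in stomach and from 776 to 14 higher in jejunum. A pseudocount of 0.1 RPKM gave 7 listed genes lower in ileum and 2 higher in colon, and no filter gave 0 higher in colon. Among all genes that pseudocount moved the calls from 443 to 565 lower in ileum and from 1096 to 1593 higher in colon. With no filter 1109 of all genes were higher in colon. The cause was not tested for these. Leaving out 1 library gave 9 to 17 higher and 8 to 13 lower in stomach, 3 to 15 and 3 to 11 in jejunum, 2 to 6 and 1 to 12 in ileum and 0 to 4 and 4 to 21 in colon. With 1 library of a tissue left out, the remaining one is assumed to vary like the others. Leaving out 1 tissue pair gave 0 to 2 genes higher and 0 lower for surgery. No paired analysis was possible because the labels give no replicate numbers, other than the surgery fit itself, whose tissue block pairs the sham and VSG libraries of a tissue. Depth limits genes under about 1 RPKM, such as Isx in stomach, with 12 and 10 reads.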
